A study of Rattus norvegicus with 24 samples.

Results

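The actin cytoskeleton genes described here are Actb, Actg1, Acta2, Tagln, Tagln2, Coro1a, Cfl1, Pfn1 and Tmsb10, 9 genes chosen by symbol. A probe set of the array carried the symbol of 8 of them, out of 14324 genes with such a probe set, and Acta2 was the one without. Actg1 had 6 probe sets, of which the one with the highest mean stood for the gene, and each of the other 7 genes had 1. The 8 genes were measured in thoracic propriospinal (TPS) neurons, spinal cord neurons that connect thoracic with lumbar segments, from female Long Evans rats aged 77 ± 10 days. Every animal, controls included, had received the retrograde tracer Fluoro-Gold in the upper lumbosacral enlargement, and labelled cells were cut from frozen thoracic cord with a laser and pooled by animal. RNA was amplified and put on an Affymetrix Rat Gene 1.0 ST array, 1 array for each of 24 animals. The transected groups had the cord cut completely at T9, 1 week after labelling, and were taken after injury at 3 days or 1 week (n = 4 each) and at 2 weeks or 1 month (n = 2 each). The uninjured groups are labelled as controls of 4 days, 2 weeks and 1 month (n = 4 each), and the methods give them as 10 days, 3 weeks and 5 weeks after labelling. Animals of 3 days and of 1 week were both set against the 4-day controls, so an error in those 4 arrays enters both comparisons. The 1-week animals were taken 2 weeks after labelling, a time that none of the control groups has. The 2-week and 1-month animals were set against the controls of the same name.

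Actin exists as free monomers and as filaments that grow at one end and are taken apart at the other, and nonmuscle cells are built from beta-actin (Actb) and gamma-actin (Actg1). Profilin hands monomers to growing filaments, cofilin severs old ones and thymosin holds monomers in reserve, while transgelins and coronins bind along filaments. In neurons this turnover drives the growth cone of a regrowing axon, and in microglia and macrophages it drives migration and phagocytosis.

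Values are log2 of the deposited intensities, and a difference of 1 is a doubling. Array medians lay between intensities of 73.6 and 81.3, no value of the 8 genes stood at the lowest deposited value of 17, and precision is limited by how many arrays there were. A gene was called where limma, fitted to all 23240 probe sets above the filter and all 7 groups, gave an adjusted p under 0.05. Transcripts of neurons gave high signals in every group (for the 12 neuronal markers, summed intensity 22581 to 26137), but so did those of astrocytes (9568 to 15197 for 8 markers) and oligodendrocytes (7001 to 10860 for 7). Because each array holds pooled tissue, a change in the number of cells of a type and a change in RNA per cell cannot be told apart. The 4-day controls 3 and 4 had the lowest array quality weights of all, 0.33 and 0.48. Control 3 was also the lowest of its group for 7 of the 8 genes, and animal 3 was the lowest of the 3-day group for all 8.

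At 3 days, 5 of the 8 genes were higher than in the 4-day controls, and none was lower. These were Tagln, Tagln2, Actb, Coro1a and Pfn1, while Actg1, Cfl1 and Tmsb10 did not pass. The background was 2.00% of all probe sets called higher (465 of 23240). The median log2 difference was 0.46 over the 8 genes and -0.01 over all probe sets. All 4 arrays of 3 days lay above all 4 controls for Actb, Tagln, Coro1a and Pfn1, a pattern shown by 2.75% of all probe sets in this direction. The calls needed the spread of all 7 groups, since a fit to these 2 groups alone called 0 of the 8 genes and 22 of all probe sets. With 4-day controls 1 and 2 only, a setting chosen after the data were seen, Tagln alone was called (adjusted p = 0.0283).

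**Figure D1:**
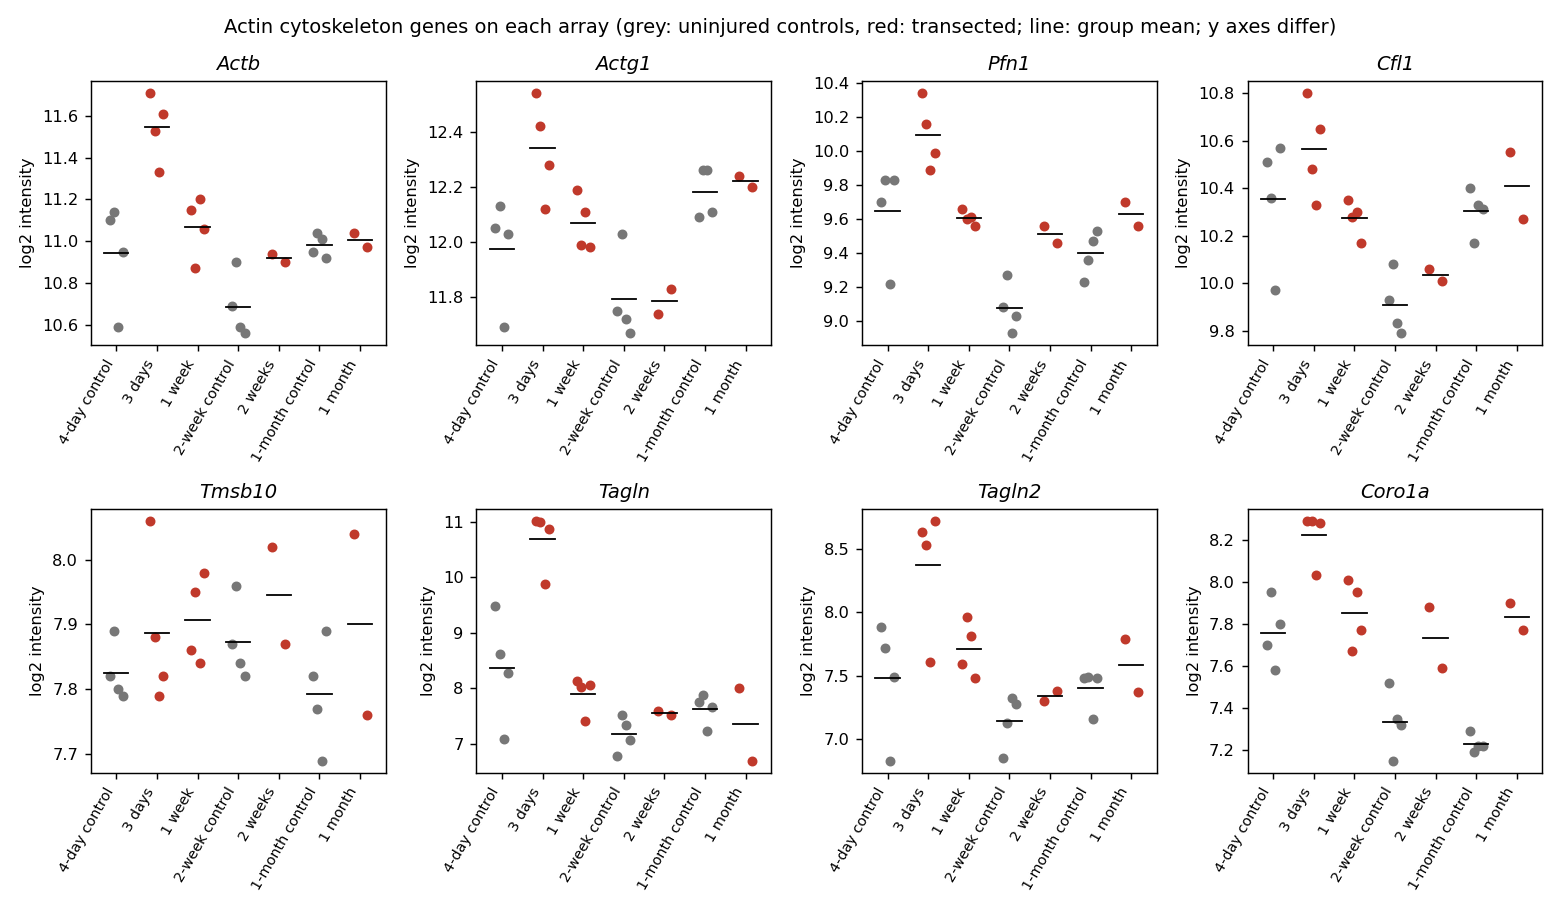
Log2 intensity (y axis, its range set for each gene) of the 8 actin cytoskeleton genes on each of the 24 arrays, by group (x axis), with controls in grey, transected animals in red and a line at each group mean. The 3-day arrays of Actb, Tagln, Coro1a and Pfn1 stand above all 4 arrays of the 4-day controls, and by 1 week each of the 8 genes overlaps those controls.

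Actb encodes beta-actin, which is often taken as a reference gene. Its log2 intensity in the 4-day controls was 11.10, 11.14, 10.59 and 10.95 in animals 1 to 4, and at 3 days it was 11.71, 11.53, 11.33 and 11.61. Every 3-day array was above every control, and the lowest control was animal 3. The log2 difference was 0.60 (SE 0.11, adjusted p = 0.00332), or 1.52-fold. At 1 week the values were 11.15, 10.87, 11.20 and 11.06, again within or just above the range of the controls (difference 0.12, SE 0.11, adjusted p = 0.999). The fall from 3 days to 1 week was tested directly and passed, with a difference of 0.48 between these groups (SE 0.11, adjusted p = 0.0216).

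Actg1 encodes gamma-actin, whose protein is nearly identical to beta-actin, so that probes may pick up transcripts of both. It stood at 12.05, 12.13, 11.69 and 12.03 in the 4-day controls and at 12.54, 12.42, 12.12 and 12.28 at 3 days. The lowest 3-day array lay just below the highest control. The difference of 0.36 (SE 0.10, 95% interval 0.15 to 0.58) did not pass (adjusted p = 0.0615). The 6 probe sets of Actg1 moved together, with pairwise r between 0.991 and 0.999 over 24 arrays, differences of 0.35 to 0.37 and adjusted p from 0.0402 to 0.0615. As 2 of the 6 passed the threshold, whether Actg1 is called rests on the probe set taken.

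A promoter sequence was given for 7 of the 9 genes, all but Actb and Tagln. The 150 bases before the start used in the RefSeq promoter table are shown for the 3 called genes among them and for Actg1 (RefSeq, build GRCr8, each written 5′ to 3′ on the strand of its gene), because Actg1 holds a CArG box, the motif bound by serum response factor, which many actin genes share. The stretches are chr10:106120952-106121101 for Actg1, chr10:55866588-55866737 for Pfn1 and chr1:190731104-190731253 for Coro1a, all on the minus strand, and chr13:87499258-87499407 on the plus strand for Tagln2. For Actg1 and Pfn1 this start is also that of the gene record, while the last 58 bases shown for Tagln2 and the last 30 for Coro1a lie inside theirs. Capitals mark the CArG box, which lies from base -90 to base -81 with -1 as the base next to the start.
Actg1: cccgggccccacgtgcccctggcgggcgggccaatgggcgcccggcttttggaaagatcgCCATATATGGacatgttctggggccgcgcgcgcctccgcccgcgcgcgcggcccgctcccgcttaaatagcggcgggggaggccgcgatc
Pfn1: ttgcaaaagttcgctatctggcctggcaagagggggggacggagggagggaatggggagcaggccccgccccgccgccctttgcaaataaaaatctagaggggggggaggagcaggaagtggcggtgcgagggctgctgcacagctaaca
Tagln2: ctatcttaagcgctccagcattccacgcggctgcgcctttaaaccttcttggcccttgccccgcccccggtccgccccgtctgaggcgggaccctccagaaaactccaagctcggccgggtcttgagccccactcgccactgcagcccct
Coro1a: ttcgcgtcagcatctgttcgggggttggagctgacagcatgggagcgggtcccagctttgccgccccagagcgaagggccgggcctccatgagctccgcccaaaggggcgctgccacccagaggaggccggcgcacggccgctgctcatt
A CArG box on either strand was found in 1 of these 7 promoters (the 250 bases before and 50 after the start), against 1.64% of all 33469 promoters, and in 3 of 106 of the wider actin list below (Actc1, Cnn2 and Acta1). The letters TATAAA were found in 0 of the 7, in 4 of the 106 and in 14.2% of all. None of the 3 called genes shown held either motif in this window, and the motif counts carry no test.

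Pfn1, profilin 1, was at 9.70, 9.83, 9.22 and 9.83 in the 4-day controls and at 10.34, 10.16, 9.89 and 9.99 at 3 days. The groups did not overlap, although the gap between the highest control and the lowest 3-day array was small. The difference of 0.45 (SE 0.12) had an adjusted p of 0.0423, the closest to the threshold of the 5 called genes, and Pfn1 was called in 17 of 37 other settings. At 1 week Pfn1 was back at 9.66, 9.60, 9.61 and 9.56, and the difference between 3 days and 1 week was 0.49 (SE 0.12, adjusted p = 0.0285).

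Cfl1, the nonmuscle cofilin, had means of 10.56 ± 0.20 (SD, n = 4) at 3 days and 10.35 ± 0.27 in the 4-day controls. The groups overlapped widely, and the difference of 0.21 had a 95% interval of -0.03 to 0.45 (adjusted p = 0.459). Tmsb10, thymosin beta 10, a monomer-binding peptide, was flat, at 7.82, 7.89, 7.80 and 7.79 in the controls and 8.06, 7.88, 7.79 and 7.82 at 3 days. Its difference of 0.06 had a 95% interval of -0.09 to 0.22 (adjusted p = 0.815), wholly below the difference of Actb. Tmsb10 also varied least of the 8 genes over the 24 arrays, with an SD of 0.09 against 0.23 for Actg1, the next lowest.

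Tagln, transgelin or SM22, an actin-bundling protein best known from smooth muscle, showed the largest difference of the 8 genes. Its 4-day controls were far apart, at 9.48, 8.62, 7.08 and 8.27, and the 3-day arrays stood at 11.02, 11.00, 9.88 and 10.87. The lowest 3-day array was above the highest control. The difference was 2.33 (SE 0.37, adjusted p = 0.00103), or 5.04-fold, and with 4-day controls 1 and 2 only it was 1.65. At 1 week Tagln was at 8.12, 8.02, 7.40 and 8.05, within the range of the controls, and below 3 days by 2.80 (SE 0.37, adjusted p = 0.000201).

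Tagln2, transgelin 2, the form of blood cells and many other nonmuscle cells, moved less and less evenly. Controls of 4 days were at 7.88, 7.72, 6.83 and 7.49, and 3-day arrays at 8.63, 8.53, 7.61 and 8.72. Animal 3 of the 3-day group lay among the controls, and the other 3 lay above them. The difference was 0.89 (SE 0.22, adjusted p = 0.0273), and it lost its call without 4-day control 3 or 4 or any one of 3-day animals 1, 2 and 4. Between 3 days and 1 week the difference of 0.66 (SE 0.22) did not pass (adjusted p = 0.141).

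Coro1a, coronin 1A, the coronin of leukocytes and microglia, was the one gene of the 8 also higher on average over the 4 times. In the 4-day controls it was 7.70, 7.95, 7.58 and 7.80, and at 3 days 8.29, 8.29, 8.03 and 8.28. The groups did not overlap (difference 0.47, SE 0.10, adjusted p = 0.0116). At 1 week it was 8.01, 7.67, 7.95 and 7.77, a difference of 0.09 (SE 0.10, adjusted p = 0.999). The 2 arrays of 2 weeks, 7.88 and 7.59, both lay above the 2-week controls of 7.52, 7.15, 7.35 and 7.32. At 1 month 7.90 and 7.77 stood well above controls of 7.29, 7.19, 7.22 and 7.22. With 2 transected arrays such gaps were not rare. Of 96 genes of the wider actin list below, 32 lay above all their controls at 2 weeks and 10 at 1 month. The share of all probe sets with such gaps at these times is not given here, so these gaps are a description. The Coro1a differences of 0.40 at 2 weeks (SE 0.12, unadjusted p = 0.00352 and adjusted p = 0.722 in limma) and 0.61 at 1 month (SE 0.12, unadjusted p = 6.7e-05 and adjusted p = 0.779) did not pass after adjustment over all probe sets. The average over the 4 times did, at 0.39 (SE 0.06, adjusted p = 0.0041), where 0.370% of all probe sets were called higher. It was called in each of the 36 other settings in which this average was fitted, with adjusted p from 0.00182 to 0.0482.

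**Figure D2:**
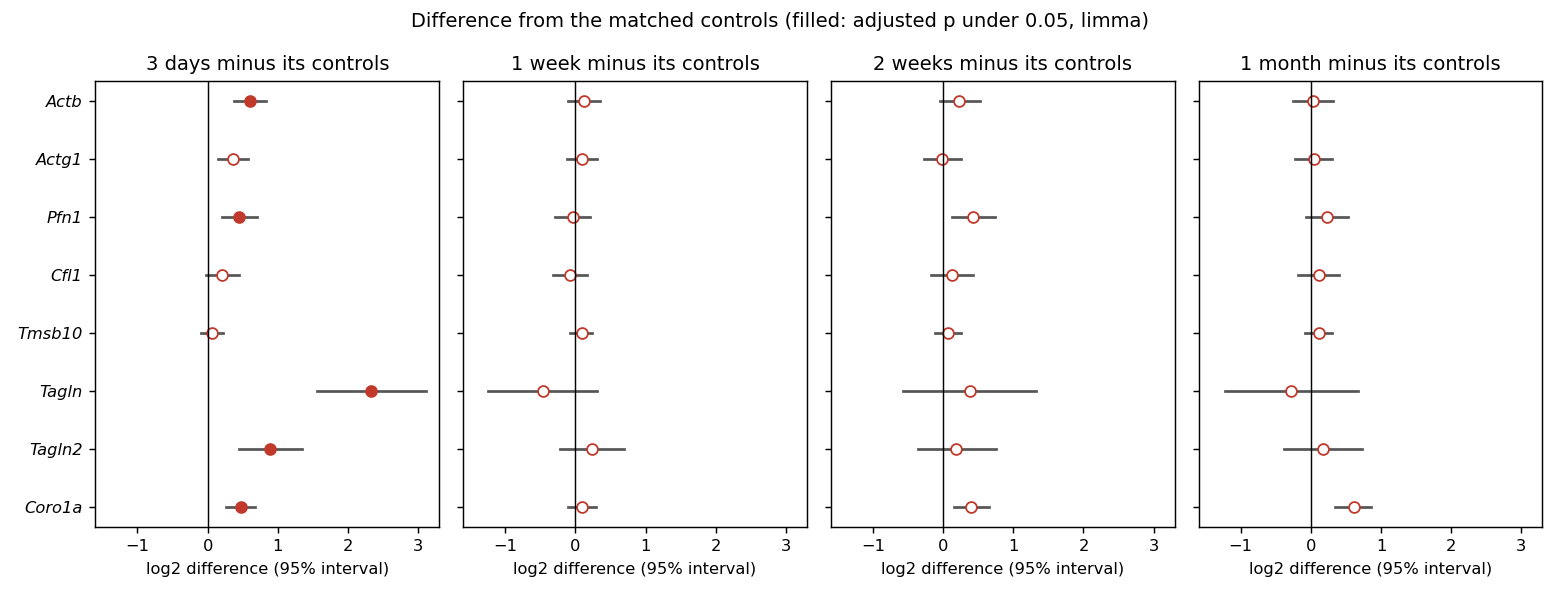
Log2 difference of each of the 8 genes (y axis) from the controls set against each time (x axis) at each of the 4 times after injury (panels), as points with 95% intervals from limma, filled where the adjusted p is under 0.05. The 5 filled points, Actb, Pfn1, Tagln, Tagln2 and Coro1a, are all at 3 days, and Coro1a lies at 0.40 and 0.61 at the later times.

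After 3 days no gene of the 8 was called at any single time. At each of the 3 later times limma called 0 of all probe sets (0.00% each), with 1031, 1229 and 799 in order of time at an unadjusted p under 0.05. Of the 8 genes, 0, 2 and 1 were under that unadjusted level, Coro1a and Pfn1 at 2 weeks and Coro1a at 1 month. The median difference over the 8 was 0.09 at 1 week, 0.21 at 2 weeks and 0.11 at 1 month. At 2 weeks Pfn1 was 9.56 and 9.46, above the controls of 9.08, 9.27, 8.93 and 9.03 (difference 0.43, SE 0.15, adjusted p = 0.801). At 1 month Pfn1 was 9.70 and 9.56, also above its controls of 9.23, 9.36, 9.47 and 9.53 (difference 0.23, SE 0.15, unadjusted p = 0.129 in limma). Of the wider actin list 32 of 96 genes likewise lay above all their controls at 2 weeks and 10 at 1 month. The share of all probe sets is not given here. With 2 transected animals, intervals at these times are wide, and for Tagln they run from -0.57 to 1.33 at 2 weeks and from -1.23 to 0.67 at 1 month. Between 3 days and 1 week 3 of the 8 genes were called higher at 3 days, Actb, Pfn1 and Tagln, against 1.93% of all probe sets, and Coro1a missed the threshold (0.37, SE 0.10, adjusted p = 0.0509). None of the 8 had a 3-day effect that differed by the test from its 2-week or 1-month effect, where 0.0904% of probe sets did in each case. For Tagln the 3-day effect was larger by 1.95 than at 2 weeks (SE 0.59, adjusted p = 0.381) and by 2.61 than at 1 month (adjusted p = 0.11), and 3 of the 8 genes were under an unadjusted p of 0.05 in each, as were 6.98% and 7.22% of all probe sets.

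The uninjured groups also differed among themselves. Actg1 was higher in 1-month controls (12.18 ± 0.09) than in 2-week controls (11.79 ± 0.16), a difference of 0.39 (SE 0.10, adjusted p = 0.0236). Cfl1 likewise stood at 10.30 ± 0.10 against 9.91 ± 0.13, a difference of 0.40 (SE 0.12, adjusted p = 0.0362). In this comparison 6.18% of all probe sets were called higher, and the 2 calls were lost without any one of 2-week controls 1, 3 and 4 or 1-month control 3. Cfl1 also lost its call after a further quantile normalization or with cyclic loess. From 4-day to 2-week controls 7 of the 8 genes were lower and none was called (0.00% of all probe sets in either direction), with the largest difference in Tagln at -1.19 (SE 0.37, adjusted p = 0.167). This rested on the 4-day control 3, since Actb, Tagln, Coro1a, Cfl1 and Pfn1 were all called lower without it, with array quality weights (787 of all probe sets called) or with 4-day controls 1 and 2 only (503). Coro1a in the 4-day controls (7.76 ± 0.16) lay above the controls of 2 weeks (7.33 ± 0.15) and 1 month (7.23 ± 0.04) with no overlap, by differences that did not pass (adjusted p = 0.103 and 0.107), the second of which passed in 6 of 36 other settings. Between 1-month and 4-day controls 1 probe set in all (0.0043%) was called.

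Ordered by group mean, 3 days came highest for 7 of the 8 genes. For Actb, Pfn1, Tagln and Coro1a its range did not overlap that of the next group, which was 1 week for Actb and Coro1a and the 4-day controls for Pfn1 and Tagln. Below this the neighbours overlapped, except at 1 place each for Cfl1 and Coro1a. The share of all probe sets with such gaps between neighbouring groups was not counted, so these gaps are a description. The 2-week controls were lowest for Actb, Pfn1, Cfl1, Tagln and Tagln2. Coro1a had its 2 lowest places taken by controls of 2 weeks and 1 month, both clear of the transected 2-week arrays above them. For Tmsb10 the means ran only from 7.79 to 7.94, and all neighbours overlapped. Over the 24 arrays all 28 pairs among the 8 genes had r above 0, with a median of 0.74, and after the group means were taken out the median was 0.52. The closest pair was Actb with Pfn1 (r = 0.91), and Tmsb10 went least with the rest (r from 0.07 to 0.31). These r share normalization, tissue and the arrays noted above, and they are a description.

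The genes most like each of the 8 over the 24 arrays, among single-symbol probe sets that passed the filter, were found by Pearson r. For Actb they were RT1-DMa (r = 0.95), a chaperone of class II antigen presentation, Cd63 (0.94), a tetraspanin of late endosomes, and Ddr1 (0.93), a collagen receptor. Pfn1 was closest to Ucp2 (0.95), an uncoupling protein of mitochondria, Ctsb (0.94), a lysosomal protease, and RT1-DMb (0.94), the partner of RT1-DMa. Coro1a lay nearest to C1qc (0.93) and C1qa (0.92), chains of complement C1q made by microglia, and to Hcls1 (0.92), a cortactin relative of blood cells. Tagln had Vim (0.96), the intermediate filament vimentin, Igfbp2 (0.95), which binds insulin-like growth factors, and Rrm2 (0.94), a subunit of ribonucleotide reductase. Tagln2 was close to Myo1e, Abca8a and Cd63 (0.90 each). Actg1 had the beta-tubulin Tubb5 (0.95), Laptm4b (0.92) and the glucose transporter Slc2a1 (0.91), and Cfl1 had Pea15 (0.91), Anxa5 (0.90) and Gabarap (0.90). Tmsb10 reached no more than 0.75, with Tekt3. Within groups these r were lower for most, as for Coro1a with C1qc (0.52).

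Markers of microglia and macrophages moved with the 3-day rise. Of the 12 markers, 9 rose at 3 days and all 12 were higher, with a median log2 difference of 1.17. Itgam, a subunit of complement receptor 3, rose by 1.77 and the lysosomal Cd68 by 1.62, while P2ry12, a receptor of resting microglia, was higher by 0.83 without passing (adjusted p = 0.273). Their summed intensity ran from 2074 to 5818 in the 4-day controls, from 7153 to 9774 at 3 days and from 5103 to 7059 at 1 week. In the controls of 2 weeks and 1 month it was 2289 to 3151, and it was 3963 to 5281 at 2 weeks and 3621 to 3891 at 1 month after injury. No marker was at the lowest value on any array, and the 4-day control with the lowest level of the list was again control 3. The r with the mean log2 of this list over 24 arrays was 0.91 for Coro1a, 0.83 for Tagln and 0.85 for Actb, and within groups it was 0.57, 0.74 and 0.78. With the astrocyte list it was 0.38, 0.35 and 0.55 over 24 arrays, and 0.24, 0.71 and 0.76 within groups, so for Tagln and Actb the within-group values of both lists were close. The part of either cell type in the rise of the actin genes was not tested. The neuronal list had 1 of 12 lower at 3 days, Rbfox3 by -0.40 (SE 0.10, adjusted p = 0.0386), and the summed intensity was 22581 to 25014 against 23077 to 25391 in the controls. Only Actb was set against the mean log2 of this list, with r of -0.44 over 24 arrays and -0.24 within groups.

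Markers of smooth muscle and pericytes did not pass at 3 days, with 0 of 10 called and a median difference of 0.15. The contractile genes Myh11 and Cnn1 of smooth muscle differed by 0.10 (SE 0.14) and 0.28 (SE 0.20). Of the 10 differences, 8 were above 0 and 2 below. The list summed to 2070 to 2621 at 3 days against 1867 to 2414 in the controls, while Tagln rose 5.04-fold. This sum is weighted toward Rgs5, at log2 10.13 to 10.55 at 3 days, where Mcam, the next highest, was at 7.23 to 8.16. The r of Tagln with the mean log2 of this list was 0.67 over all arrays and 0.31 within groups. The part of these cells in the rise of Tagln was not tested. Of 7 fibroblast markers 0 were called (median 0.09), although Dcn was higher by 1.15 (SE 0.33, adjusted p = 0.0647), with summed intensities of 914 to 1529 against 696 to 1043. The 5 endothelial markers (0 called, median -0.08) and the 7 of lymphocytes and neutrophils above the filter (0 called, median 0.00) did not rise by the test. Among the neutrophil genes the controls were far apart for S100a8, at 4.79 to 8.43 against 7.73 to 8.15 at 3 days. The same held for S100a9, at 5.83 to 8.94 against 8.04 to 8.81. Mpo was at 5.74 to 5.97 in the controls and 5.61 to 5.86 at 3 days. Of 8 astrocyte markers 1 was called, Gjb6, a gap junction gene, lower by -0.45 (SE 0.12, adjusted p = 0.0446). Gfap, the intermediate filament of reactive astrocytes, had the highest difference of that list, 0.91 (SE 0.37), without passing (adjusted p = 0.23). The list had 2 of 8 above 0 and a median of -0.18, with summed intensities of 11099 to 13352 against 9988 to 15197. Of 7 oligodendrocyte markers 1 was called, Cldn11, a tight junction gene of myelin, higher by 0.78. The list had 4 of 7 above 0, 3 below and a median of 0.01, with summed intensities of 7920 to 10860 against 7177 to 9573.

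**Figure D3:**
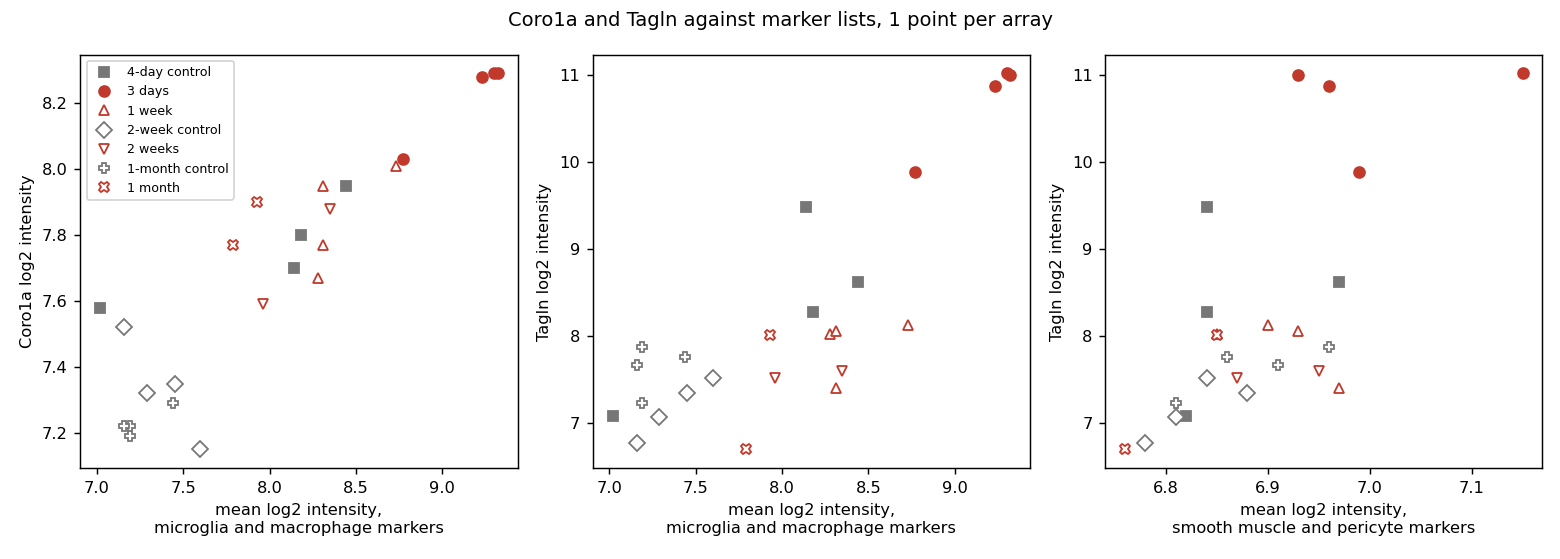
Log2 intensity of Coro1a and Tagln (y axes) against the mean log2 intensity of 12 microglia and macrophage markers or 10 smooth muscle and pericyte markers (x axes), 1 point per array, red for transected and grey for control animals. The 3-day arrays of Tagln stand apart from all others in level. Their smooth muscle values lie between 6.93 and 7.15, against 6.76 to 6.97 elsewhere, and a part of these cells was not tested.

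Other actin cytoskeleton genes were taken from a list of 111, sorted by role, of which 96 had a probe set, all above the filter. At 3 days 10 of the 96 rose (10.4%, against 2.00% of all probe sets), none fell, and the median difference was 0.10. Scaling to the reference genes Rplp1, Rpl13a and Ldha moved the median of all probe sets to -0.24. Then 7 of the list were higher and 18 lower, where 326 of all 23240 probe sets were higher and 5629 lower. Actb, Tagln and Tagln2 were still called higher. Among bundling and crosslinking proteins 3 of 18 rose. Flna, filamin A, which crosslinks filaments into networks, was at 5.80, 6.27, 5.59 and 5.73 in the 4-day controls and at 7.50, 7.53, 6.66 and 7.36 at 3 days. Its groups did not overlap, and the difference was 1.42 (SE 0.15, adjusted p = 2.73e-05). Flna was also the one gene of the list whose 3-day effect was larger by the test than its 2-week effect (by 1.36, SE 0.24, adjusted p = 0.0351). The same held against its 1-month effect (by 1.61, adjusted p = 0.0171). Lcp1, L-plastin of leukocytes, rose by 1.16 (SE 0.20), and the calponin Cnn3 by 0.98 (SE 0.22).

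Of 11 genes of monomer binding and turnover 2 rose. Ssh2, a slingshot phosphatase that activates cofilin, was higher by 0.77 (SE 0.13, adjusted p = 0.00146). Wdr1, which speeds disassembly with cofilin, went from 9.43, 9.63, 8.84 and 9.19 to 10.17, 10.06, 9.70 and 9.91 (difference 0.69, SE 0.13, adjusted p = 0.00505). Much of this group consists of cofilin genes and their regulators, so a link of both called genes to cofilin carries no weight. Cfl2, Dstn, Ssh3 and Limk2 of the group were not called, nor was Cfl1. Limk1, the kinase that inactivates cofilin, had the lowest difference of the list, -0.33 (adjusted p = 0.288). Gsn, gelsolin, was the 1 of 11 capping and severing genes to rise (0.58, SE 0.11), and Cyfip1, of the WAVE complex, the 1 of 24 nucleation genes (0.62, SE 0.13). In the tropomyosin and myosin group 2 of 11 rose, the myosin light chain Myl12a (0.57, SE 0.14) and the tropomyosin Tpm4 (0.36, SE 0.09). None of 9 membrane and adhesion linkers and none of the 3 other actin isoforms with a probe set was called.

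**Figure D4:**
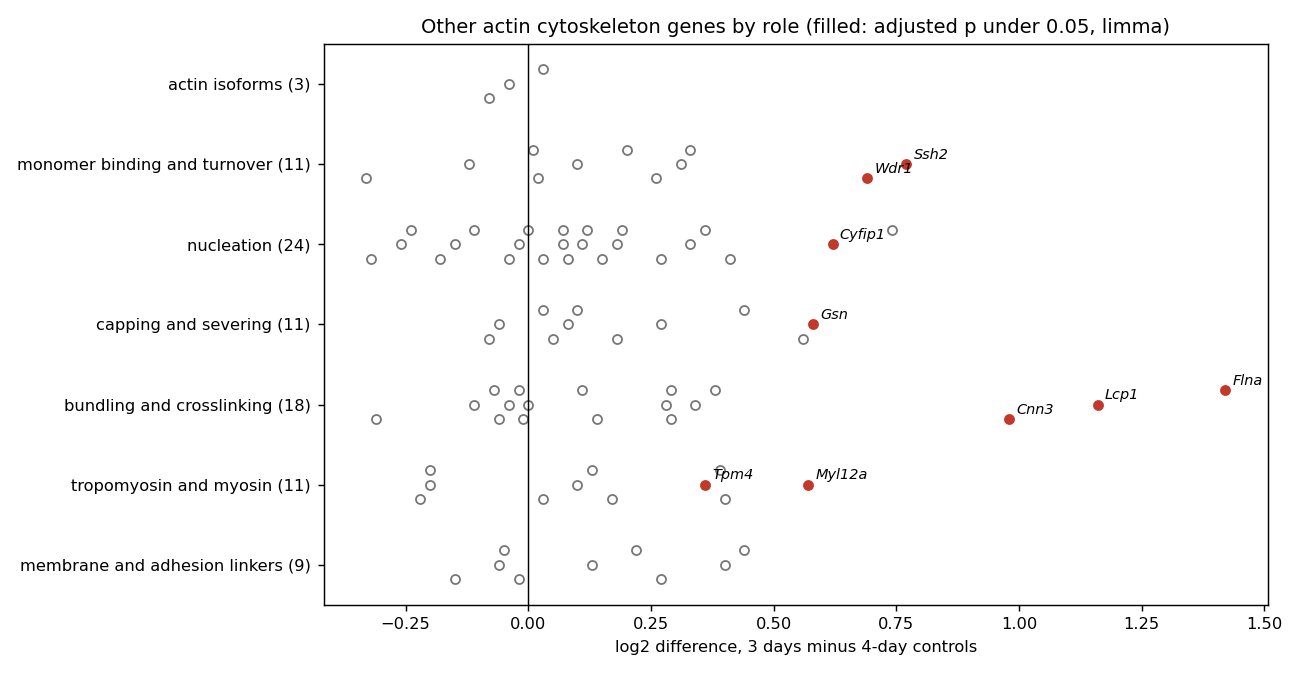
Log2 difference between 3 days and the 4-day controls (x axis) for the 87 genes of the wider actin list in 7 role groups, by role with the number of genes (y axis), each point a gene and filled where the adjusted p from limma is under 0.05. The 9 filled points all lie to the right of 0, from 0.36 (Tpm4) to 1.42 (Flna), and the other 78 are spread around 0.

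At the later times 0 of the 96 were called (6, 12 and 4 in order of time at an unadjusted p under 0.05 in limma). Between 3 days and 1 week 8 were higher at 3 days (8.33%, against 1.93% of all probe sets), among them Flna by 1.46 (SE 0.15, adjusted p = 1.91e-05) and Myl9, a myosin light chain of contractile cells, by 0.70 (SE 0.15, adjusted p = 0.0172). On average over the 4 times 3 rose (3.12%, against 0.370% of all probe sets), Lcp1 (0.68), Arpc1b (0.33), a subunit of the Arp2/3 complex, and Tpm4 (0.25). Uninjured animals of 1 month against 2 weeks gave 19 higher (19.8%, against 6.18% of all probe sets) and 3 lower (against 4.00%). Over all probe sets too this comparison gave more calls than 3 days did (2366 and 671). The gap narrowed to 1064 and 818 after a further quantile normalization and to 1117 and 756 with cyclic loess. The largest difference of the list was that of Limk1 at 0.71 (SE 0.14, adjusted p = 0.008).

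Because Actb is a common reference, it was set against 16 other reference genes on the same arrays. At 3 days 2 of the 16 were higher by the test. Ldha, lactate dehydrogenase A, rose by 0.46 (SE 0.11, adjusted p = 0.0231) and the ribosomal protein gene Rplp0 by 0.40 (SE 0.10, adjusted p = 0.0362). Gapdh differed by 0.07 (95% interval -0.09 to 0.23), Ppia by -0.03 (-0.15 to 0.09) and Ywhaz by 0.04 (-0.08 to 0.15). Over the 24 arrays the SD of Actb was 0.30, that of Gapdh 0.14, of Ppia 0.06 and of Ywhaz 0.05. Ordered by this SD, which takes in the 3-day rise, among the 16 reference genes and the 8 actin genes, Actb took place 20 of 24, and every reference gene varied less. Over the 12 controls alone its SD was 0.21, and 5 of the 16 reference genes varied more (Tbp, Hprt1, Sdha, Tubb5 and Tfrc, 0.24 to 0.30).

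The study's own PCR references were Rplp1, Rpl13a and Ldha. The paper describes them as unchanged on its arrays, so their choice was not independent of these values. Relative to the mean of these 3 genes, log2 Actb was -0.38 ± 0.11 (SD, n = 4) at 3 days and -0.75 ± 0.22 (n = 4) in the 4-day controls. The groups did not overlap, and the difference of 0.37 had an exact two-sided permutation p of 0.0286, the smallest that 4 against 4 arrays can give. Because Actb by itself already separated these groups, this p is not separate support for its rise. Against Gapdh alone the difference was 0.53 and against all 16 reference genes 0.50 (same permutation p). Against Ldha alone, which rose itself, it was 0.14 (exact permutation p = 0.6). Over 7 such reference sets the Benjamini-Hochberg values were 0.0333 for the other 6 and 0.6 for Ldha. The sets share Actb and many of their reference genes, so they are not 7 separate tests.

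**Figure D5:**
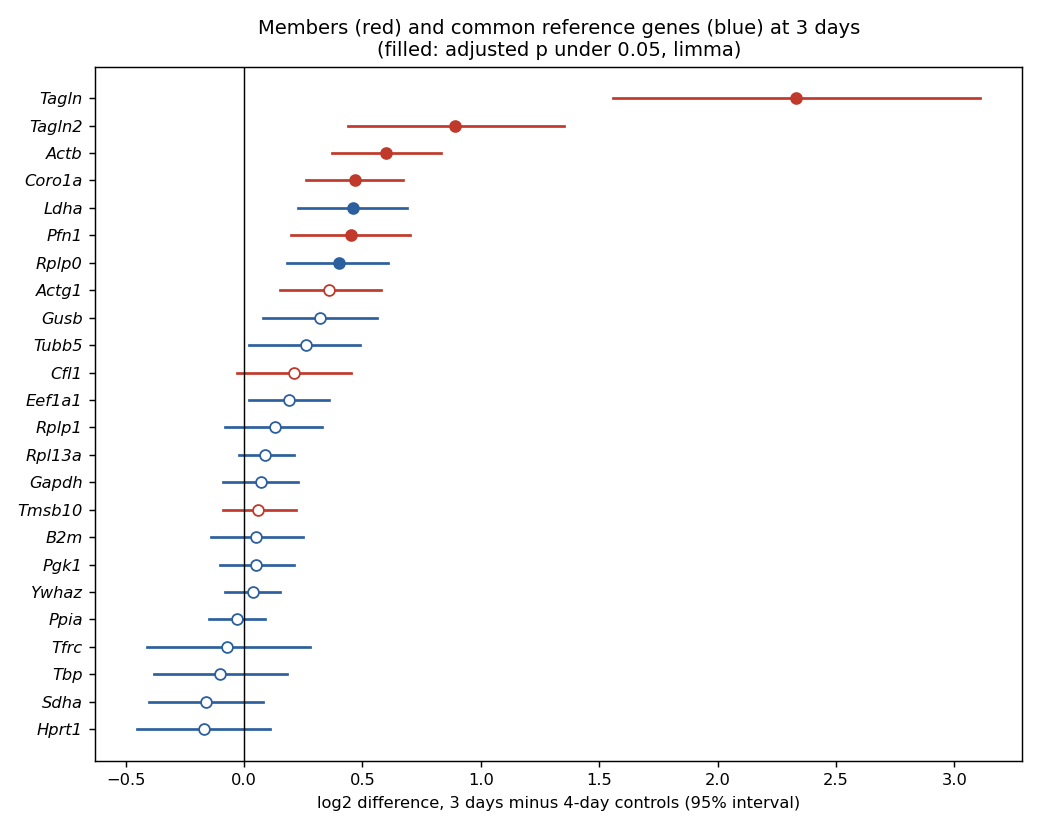
Log2 difference between 3 days and the 4-day controls (x axis, points with 95% intervals from limma, filled where the adjusted p is under 0.05) for the 8 actin cytoskeleton genes in red and 16 common reference genes in blue. Actb at 0.60 lies above all 16 reference genes, the highest of which is Ldha at 0.46.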

How the data were processed

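Values of 24 arrays, 1 for each animal, were used. Per the methods, the authors ran RMA, which quantile-normalizes, in GeneSpring GX, and what they deposited is intensity on a linear scale, taken to log2 here. RMA gives the single probes of all arrays one distribution before they are summarized, so a shift of all genes would not be seen. Array medians of the summarized intensities still ran from 73.6 to 81.3. Symbols came from the platform annotation, with 1 symbol for 15097 of 27342 probe sets. Where several shared a symbol, the one with the highest mean was used. Probe sets in the lowest 15 percent by mean log2 (below 5.05) were left out, and 23240 remained. Group means were modelled by limma 3.58.1 (R 4.3.3) with empirical Bayes (residual degrees of freedom 17, prior 3.64). Each comparison was adjusted on its own by Benjamini and Hochberg, and the fit was tested on simulated data. Permutation tests used scipy 1.17.1, and tables and plots Python 3.11.15, pandas 2.3.3, numpy 2.4.6 and matplotlib 3.10.9. Members and lists were chosen with earlier results of these data known. Named were all members, the 3 genes most alike to each, called genes of the wider list (at most 3 for each role and direction at 3 days, and some of those called in other comparisons), reference genes and defining markers. The 2-way analysis of variance of the study was not repeated, and its PCR was not analysed here. The alternatives tried are in the closing section. 1 role group of the wider list enters its counts and is not reported here.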

Additional observations from a re-analysis of the deposited data

Results flagged for a closer look

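In groups of 4, arrays that stood far from the other 3 were looked for over 45 sets of values, and 5 were found, where chance flags about 1 in 20. Animal 3 of the 3-day group was low for Tagln (9.88, the others 10.87 to 11.02), Tagln2 (7.61, the others 8.53 to 8.72) and Coro1a (8.03, the others 8.28 to 8.29). Animal 4 of the 1-week group was low for Tagln (7.40, the others 8.02 to 8.12), and 1-month control 3 was low for Tagln2 (7.16, the others 7.48 to 7.49). Without 3-day animal 3, 6 of the 8 genes were called at 3 days, Actg1 in addition.

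Effects that differed between 2 times by the test itself were those of Actb, Tagln and Pfn1, higher at 3 days than at 1 week by log2 differences of 0.48, 2.80 and 0.49. As both times share the 4-day controls, this is a comparison of the transected animals.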

How the results depend on the processing

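The call of 5 of the 8 genes at 3 days, none at the 3 later times and 1 on average (Coro1a) rested on few arrays. At 3 days the count stayed at 5 or 6 without a filter, with a filter at the median, with an intensity trend, weights for array quality, cyclic loess, a further quantile normalization, the 12 controls pooled, probe sets averaged by gene, a minimum difference of 0.25 or a replicate block. It was 3 after scaling to Rplp1, Rpl13a and Ldha (Actb, Tagln and Tagln2), 0 with only the groups compared, 0 with the methods' t-test (2001 of all probe sets at an unadjusted p under 0.05) and 1 with 4-day controls 1 and 2 only. Leaving out 1 array gave 3 to 6, with 3 (Actb, Tagln and Coro1a) without 4-day control 3 or 3-day animal 1, 2 or 4. Scaling to the 3 reference genes moved the median of all probe sets at 3 days to -0.24, with 326 of them called higher and 5629 lower. Cfl1 and Tmsb10, not called, then turned to -0.02 and -0.16.

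The difference between 3 days and 1 week was called for 3 genes, for 5 with array quality weights, for 1 (Tagln) after scaling to reference genes, with only the groups compared or with the 12 controls pooled, for 0 with the t-test, and for 1 to 5 without 1 array (1 without 3-day animal 1 or 2 or 1-week animal 2 or 5, and 5 without 3-day animal 3). The larger effect at 3 days than at 2 weeks was called for 1 gene, Tagln, with controls pooled. Against 1 month it was called for 1, again Tagln, with controls pooled, with the replicate block, or without 4-day control 1 or 3-day animal 3, and otherwise for 0. Over the 3 comparisons between control groups together, the count of genes called in any was 2, both between 1 month and 2 weeks. It became 6 with array quality weights or 4-day controls 1 and 2 only, 0 after scaling to reference genes, 1 with the t-test and 0 to 6 without 1 array (6 without 4-day control 3). In each case of 6, 4 genes were called between 1 month and 2 weeks, 5 between 2 weeks and 4 days and 1 between 1 month and 4 days. Of all 23240 probe sets, 5404, 787 and 148 were called in these comparisons with array quality weights. With 4-day controls 1 and 2 only they were 3921, 503 and 134. The count over all probe sets without 4-day control 3 is not given here.

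Of the wider list, 10 were called at 3 days, 24 with controls pooled, 25 after scaling to reference genes (7 higher and 18 lower), 4 with 4-day controls 1 and 2 only and 0 with only the groups compared or the t-test. Of all 23240 probe sets 671 were called at 3 days, 2117 with controls pooled, 5955 after scaling (326 higher and 5629 lower) and 286 with 4-day controls 1 and 2 only. Of the reference genes, 2 were called higher, 2 lower after scaling to 3 of them, 1 after a further quantile normalization, 4 with controls pooled, 0 with only the groups compared, the t-test or 4-day controls 1 and 2 only, and 0 to 2 without 1 array (0 without 4-day control 1 or 3-day animal 1 or 4). Actb against 3 reference genes lay between 0.279 and 0.432 without 1 array, where 3 against 4 arrays cannot give an exact permutation p below 0.0571. It was 0.203 with 4-day controls 1 and 2 only. The exact permutation p of 0.133 there is the smallest that 4 against 2 arrays can give, so it cannot show a loss of the difference. Arrays of the same replicate number did not deviate together (mean r 0.0215 over 55 pairs, and -0.00631 over the 189 others), so the replicate block, which called 6 genes at 3 days, is given only here. Of 3296 values of single genes under an alternative, none turned sign with a call on either side, and 74 turned sign without one. The causes of these shifts were not tested.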
